A study of Rattus norvegicus with 15 samples.

Results

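The cytosolic ribosomal protein genes of the rat testis were compared between irradiated and control samples on 15 expression arrays. Their probe sets (groups of short oligonucleotides that report one transcript) were chosen by symbol alone, with no measured value. A probe set was taken where its only gene symbol was Rpl or Rps followed by a digit, or Rplp0, Rplp1, Rplp2 or Rpsa. The 14 probe sets of the Rps6k kinases, which phosphorylate ribosomal protein S6 and are not part of the ribosome, and 2 probe sets with pseudogene symbols were left out. This gave 55 probe sets of 48 genes, 33 of the large and 15 of the small ribosomal subunit, among 31042 probe sets other than the array's own controls. Neither Rplp1 nor Rplp2 had a probe set with that symbol alone. Another 36 probe sets carried a ribosomal protein symbol together with other symbols, and no gene is named from them.

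The irradiated group comprised 5 samples of testes of LBNF1 rats, a laboratory F1 hybrid, after 6 Gy to the lower abdomen. The control group comprised 10 samples of testes of the same strain, whose source is labelled as before irradiation. All rats were 25 to 27 weeks old, and how long after irradiation the testes were taken was not stated in the labels. The labels call the samples biological replicates, but not whether separate rats gave them, and the p-values reflect only how much these samples vary.

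Each cytosolic ribosome has a small subunit, which reads the messenger RNA, and a large subunit, which joins amino acids and holds the tunnel through which the new chain leaves. Most ribosomal proteins come from single genes with strong promoters, and their messenger RNAs begin with a run of pyrimidines (C and T), the terminal oligopyrimidine or TOP tract, through which growth signals control their translation. Several ribosomal protein genes have a second copy with restricted expression, and in the mouse the Rpl39 copy Rpl39l is used by male germ cells. In a whole organ, the level of such transcripts depends on which cells are present as well as on each cell.

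RefSeq start regions of the assembly GRCr8 were found for 41 of the 48 genes. Shown are 8 windows of 30 bases, from 10 bases before the start to 20 bases from it on, for genes the results turn on: 4 with large rises, both genes that fell, the sister gene of one of those, and a gene that did not pass the test. Each is written 5′ to 3′ on the gene's strand, with the first of its longest pyrimidine runs in capitals.
Rpl13a (chr1:104748894-104748923, minus strand): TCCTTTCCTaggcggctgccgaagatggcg
Rpl35 (chr3:43165902-43165931, minus strand): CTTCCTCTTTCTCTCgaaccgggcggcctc
Rpl19 (chr10:83519054-83519083, plus strand): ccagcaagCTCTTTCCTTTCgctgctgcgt
Rps3 (chr1:163195757-163195786, minus strand): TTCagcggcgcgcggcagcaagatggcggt
Rpl39 (chrX:121195877-121195906, minus strand): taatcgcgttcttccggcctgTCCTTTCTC
Rpl39l1 (chr10:5966602-5966631, minus strand): caggccgTCCCgctatcctggtgtgtggtc
Rps4y2 (chr4:183000903-183000932, plus strand): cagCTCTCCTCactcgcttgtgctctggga
Rpl11 (chr5:153560783-153560812, minus strand): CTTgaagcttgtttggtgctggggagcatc

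The longest run had 9 bases in the Rpl13a window and 15 in that of Rpl35, but 3 in that of Rps3. Of the 5 largest rises, Rpl3 and Rpl26 are not shown, and their longest runs had 5 and 3 bases. Among the 41 genes, 21 (51.2%) had a run of at least 8 pyrimidines in this window, against 2899 (10.6%) of the 27416 other genes of the RefSeq table and 4 of 63 (6.35%) mitochondrial ribosomal protein genes. The median longest run was 8 bases in the cytosolic ribosomal protein genes and 4 in the other genes. A C followed by 4 pyrimidines stood exactly at the annotated start in 11 genes (26.8%), against 2.59% of the other genes. The letters CCGGAAG, the core bound by ETS-family factors, were found on either strand within 300 bases in 10 genes (24.4%), against 9.20% of other genes and 33.3% of mitochondrial ribosomal protein genes. Its reverse complement, CTTCCGG, can share bases with a pyrimidine run. These matches are counts of letters and depend on where RefSeq places the start.

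The values are log2 signals, and a change is the irradiated mean minus the control mean. Pearson correlations across probe sets were 0.941 to 0.957 between irradiated arrays, 0.906 to 0.940 between control arrays and 0.645 to 0.687 between the groups. The difference between 3′ and 5′ actin probe sets, a sign of RNA integrity, was 0.903 to 1.16 log2 units on irradiated arrays, against 1.37 to 1.89 on control replicates 6, 7 and 8 and 0.652 to 1.05 on the other 7 control arrays, 6 of which lay below every irradiated array. Its part in the results was not tested. Markers of the testis's germ cells and somatic cells were both measured in control testes, and their levels differed widely between the groups. All 10 spermatid markers and all 6 tested spermatocyte markers fell. Linear signals were summed over all listed markers on the array, tested or not. The sums for spermatids were 0.917 to 3.84 on irradiated arrays, against 299 to 456 on control arrays. For spermatocytes, with 7 markers summed, they were 0.946 to 1.17 against 79.7 to 116. All 9 tested Sertoli cell markers rose, with sums over 11 markers of 109 to 156 on irradiated and 25.4 to 33.3 on control arrays. In a fit that left out no dim probe sets, 9 of the 11 were higher, 1 was lower and 1 did not pass. All 9 Leydig cell markers rose, with sums of 88.4 to 109 on irradiated and 7.47 to 10.3 on control arrays. Sums were 26.0 to 34.5 against 7.53 to 10.4 for peritubular myoid cells (7 of 7 higher), 26.7 to 29.5 against 3.30 to 4.89 for macrophages (9 of 9) and 3.57 to 4.13 against 1.38 to 1.86 for endothelial cells (6 of 6). Among 6 tested spermatogonial markers 2 were higher and 2 lower, with sums over 7 markers of 6.86 to 9.58 and 5.98 to 7.25. In the fit that left out no dim probe sets, 2 of the 7 were higher and 3 lower. Both red blood cell markers measured were higher, at 8.73 to 15.1 against 2.58 to 4.69. The part of these cell types in the changes of ribosomal protein genes was not tested, and fewer cells of a type and less RNA per cell cannot be told apart in whole testes.

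Most ribosomal protein genes had higher signals in irradiated testes, typically by nearly 1 log2 unit, with a direction that turned over when arrays were centred on the Sertoli cell markers. Of the 44 genes tested, 38 were higher and 2 were lower at an adjusted p of 0.05 (limma), where 47.6% of all 10841 genes tested were higher and 37.9% were lower. The median change was 0.93, a 1.90-fold rise, against 0.20 for all genes tested, so the ribosomal protein genes stood 0.73 above them. The quartiles were 0.67 and 1.50 for ribosomal protein genes and -0.88 and 1.32 for all genes. In 34 of the 44 genes every irradiated array lay above every control array, as in 40.5% of all genes, and in 2 every irradiated array lay below, as in 29% of all genes. Changes exceeded 1 in 20 genes and 2 in 1 gene, Rpl13a. Among the 50 probe sets tested, 44 were higher and 2 lower, where 49% and 34.3% of all 18711 probe sets were, and 38 lay wholly above and 2 wholly below the control range, where 41.3% and 24.2% did.

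A probe set was tested if it reached its array's median on at least 5 of the 15 arrays. Of the 50 that passed, 46 did so on every array, while Rpl26l1, the second Rpl3 probe set and the second Rps24 probe set did so on fewer than 5 control arrays. Those Rpl3 and Rps24 probe sets needed irradiated arrays to pass, so their rises in the counts above are not independent of the filter. The 5 that did not pass were single probe sets of Rpl28, Rpl30, Rps13 and Rpl3l, which left those 4 genes out of the test, and a second one of Rpl14. With no filter, 46 of the 55 probe sets were higher, 2 were lower and 7 did not pass, where 37.8% of all probe sets were higher and 29% lower.

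**Figure D1:**
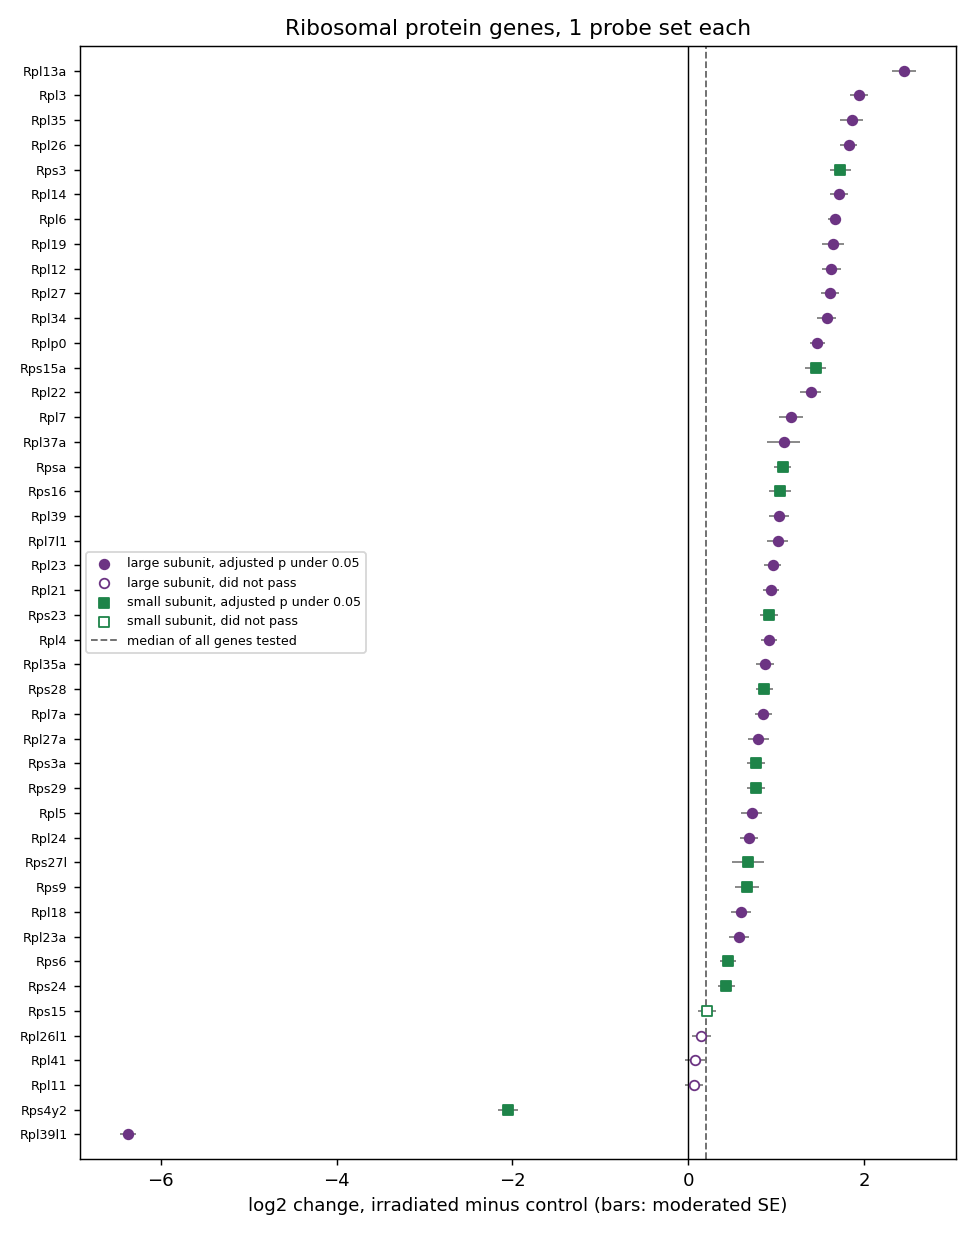
Change of each of the 44 tested ribosomal protein genes (irradiated minus control, log2 units, 1 probe set a gene) with limma's moderated standard error; filled symbols passed an adjusted p of 0.05. As deposited, 38 genes lie above 0 with filled symbols and only Rpl39l1 and Rps4y2 lie below. Once arrays were centred on the Sertoli cell markers, 33 genes were lower, where 77.6% of all genes were.

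The median of the ribosomal protein genes changed sign only with arrays centred on the Sertoli cell markers. Those markers rose, and this centring lowers the change of every gene by the mean rise of their tested probe sets. That mean is over probe sets, so it is not the mean of the 9 tested marker genes. Of those genes, 6 still passed as higher and 2 as lower with this centring, with a median of 0.48. The median change of all genes was -0.06 after quantile normalization, 0.05 with median-centred arrays and -1.64 relative to the Sertoli cell markers. Under these 3 scalings the ribosomal protein genes had medians of 1.06, 0.77 and -0.91, which stood 1.12, 0.73 and 0.73 above all genes. Both centrings subtract a single value from each array, so they cannot alter the 0.73 found as deposited. Only quantile normalization could. Quantile normalization gave 39 higher and 2 lower genes, where 41.3% and 44.1% of all genes were, and median centring gave 38 and 2, where 43.9% and 41.6% were. Relative to the Sertoli cell markers, 1 gene, Rpl13a, was higher and 33 were lower, where 11.2% and 77.6% of all genes were.

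By array, the median over the ribosomal protein genes was 4.27, 4.57, 4.14, 4.22 and 4.11 log2 units on irradiated arrays 1 to 5, and on control arrays it ran from 2.95 (median 3.13) to 3.41. The groups did not overlap, with means of 4.27 ± 0.18 in irradiated and 3.14 ± 0.13 in control testes (SD, n = 5 and 10), while the median over all genes tested was 0.06 ± 0.05 and -0.18 ± 0.05. Irradiated replicate 2 was the highest in its group. Without it, 38 genes were higher and 2 lower, and the median change was 0.87.

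The 55 probe sets held 2.40 ± 0.33% of the summed linear signal in irradiated testes and 1.37 ± 0.06% in control testes (SD, n = 5 and 10). Between 37 and 39 of them were among the brightest 1% of all probe sets on each irradiated array, against 10 to 13 on each control array. These shares do not depend on a shift of the whole array, which moves all probe sets of an array alike on the log2 scale. They do depend on which other probe sets are bright. The summed signal of the spermatid markers was 299 to 456 on control arrays and 0.917 to 3.84 on irradiated arrays. The part of that loss in the shares and ranks was not tested. The spread within a group was small for most probe sets tested, with a median SD of 0.21 on irradiated and 0.16 on control arrays. It was widest among irradiated arrays for Rpl37a, a large-subunit protein, at 3.64, 5.03, 4.38, 3.57 and 4.28, with controls at 2.93 to 3.34 (median 3.07). Every irradiated value still lay above the control range, and its change was 1.08 ± 0.18 (SE).

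**Figure D2:**
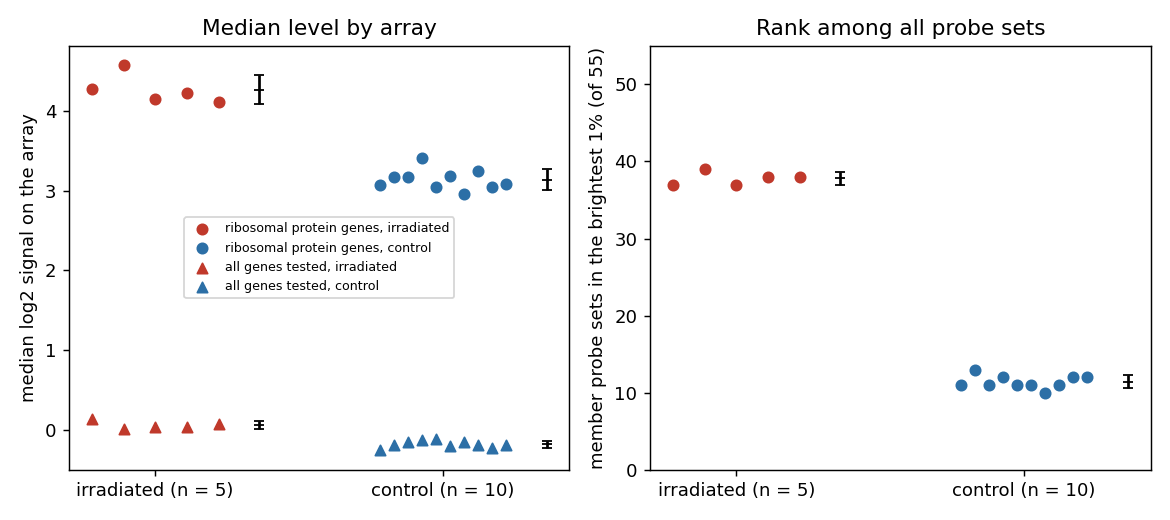
Left, the median log2 signal of the tested ribosomal protein genes and of all genes tested on each irradiated (n = 5) and control (n = 10) array, with means and SD; right, how many of the 55 ribosomal protein probe sets were among the brightest 1%. Irradiated arrays hold 37 to 39 and control arrays 10 to 13, and the higher median of irradiated arrays on the left turns over with arrays centred on the Sertoli cell markers.

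In the large subunit, 26 of 30 tested genes were higher and 1 was lower as deposited, with a median change of 1.02. Of all genes tested, 47.6% were higher and 37.9% lower. With arrays centred on the Sertoli cell markers, 1 large-subunit gene was higher and 20 were lower, where 11.2% and 77.6% of all genes were. The largest rise was that of Rpl13a, which also takes part in silencing of inflammatory transcripts. It had 4.42, 4.73, 4.33, 4.39 and 4.20 on irradiated arrays, and controls ran from 1.59 (median 1.89) to 2.40. The groups lay well apart, and the change was 2.45 ± 0.14, a 5.47-fold rise (adjusted p = 3.75e-11). It was the only member gene that still passed as higher, at 0.61, when arrays were centred on the Sertoli cell markers.

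Rpl3, which lies close to the site where peptide bonds are made, had 4.98, 5.23, 4.83, 4.84 and 4.69 on irradiated arrays and 2.79 to 3.30 (median 2.95) on control arrays. No control array reached an irradiated one, and the change was 1.95 ± 0.10 (adjusted p = 1.23e-11). Its second probe set, which can match related transcripts, reached the array median on 4 of 10 control arrays and was at least 1.99-fold higher, with overlapping groups. Rpl35, at the exit of the peptide tunnel, had 3.87, 4.25, 3.66, 4.09 and 3.66 on irradiated arrays and 1.76 to 2.44 (median 1.98) on control arrays. These also did not overlap, and the change was 1.86 ± 0.13 (adjusted p = 8.94e-10).

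Rpl26, which also binds the p53 transcript, had 5.07, 5.41, 4.95, 4.98 and 4.76 on irradiated arrays, against 3.06 to 3.41 (median 3.22) on control arrays, a change of 1.82 ± 0.10. Rpl22, another RNA-binding protein of the large subunit, rose by 1.39 ± 0.12, and Rpl35a by 0.87 ± 0.11. Rpl27a, one of the 5 brightest members, rose by 0.80 ± 0.12. In each of these genes the irradiated arrays all lay above the control arrays as deposited, yet with Sertoli centring the changes were -0.02 for Rpl26, -0.45 for Rpl22, -0.97 for Rpl35a and -1.04 for Rpl27a. Rpl6, Rpl12, Rpl14, Rpl19, Rpl27 and Rpl34 rose by 1.58 to 1.71 and did not overlap with controls.

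In the small subunit, 12 of 14 tested genes were higher and 1 was lower as deposited, with a median change of 0.77. Of all genes tested, 47.6% were higher and 37.9% lower. With arrays centred on the Sertoli cell markers, 0 small-subunit genes were higher and 13 were lower, where 11.2% and 77.6% of all genes were. The subunits were not tested against each other. Rps3, which sits where messenger RNA enters and also acts in DNA repair, had 3.93, 4.07, 3.54, 3.89 and 3.57 on irradiated arrays and 1.72 to 2.29 (median 2.13) on control arrays. The groups lay apart, with a change of 1.73 ± 0.12 (adjusted p = 6.79e-10). Rps23, a protein of the decoding centre, rose by 0.92 ± 0.11, and Rps29 by 0.77 ± 0.10. Rps6, the target of the S6 kinases, rose by 0.45 ± 0.09, with irradiated arrays at 4.95, 5.28, 4.74, 4.83 and 4.72 and controls at 4.25 to 4.57 (median 4.49). Its groups did not overlap, although the rise was among the smallest that passed. With Sertoli centring these 4 genes had changes of -0.11, -0.92, -1.07 and -1.39.

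The stalk of the large subunit, where translation factors dock, was represented by Rplp0, which anchors it. Rplp0 had 4.58, 4.68, 4.30, 4.39 and 4.39 on irradiated arrays and 2.81 to 3.26 (median 2.98) on control arrays. The groups did not overlap, and the change was 1.47 ± 0.09 (adjusted p = 7.67e-11), or -0.37 with Sertoli centring. Rpsa, a small-subunit protein also known as the laminin receptor precursor, rose in all 3 of its probe sets, by 1.07 ± 0.10, 0.93 ± 0.10 and 1.76 ± 0.12. Rack1, a signalling scaffold on the small subunit that the symbol rule does not take, had 4.08, 3.98, 3.68, 3.96 and 3.74 on irradiated arrays and 1.69 to 1.92 (median 1.78) on control arrays. It rose by 2.10 ± 0.08 and stayed at 0.26 with Sertoli centring.

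Of the tested genes, 4 did not pass: Rpl11, Rpl41, Rps15 and Rpl26l1. Rpl11, which binds the p53 regulator Mdm2 when ribosome assembly is disturbed, had 4.28, 4.52, 3.78, 4.18 and 4.08 on irradiated arrays and 3.97 to 4.34 (median 4.08) on control arrays. The groups overlapped, with a change of 0.07 ± 0.10 (adjusted p = 0.551), which passed as higher after quantile normalization (0.17) and as lower with Sertoli centring (-1.77). Rpl41, a very small protein of the large subunit, had a change of 0.07 ± 0.11 (adjusted p = 0.554). Rps15 had one of 0.22 ± 0.10 (adjusted p = 0.0663). It passed as higher under 9 of 25 alternative settings and as lower under 1, the Sertoli centring. Rps24, whose human counterpart is mutated in Diamond-Blackfan anaemia, passed with 0.44 ± 0.10 in overlapping groups. Its second probe set was below the array median on every control array and was at least 1.57-fold higher in irradiated testes. That probe set entered the test only through irradiated arrays, so its rise is not independent of the filter and adds no support.

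When the 44 genes were ordered by their mean over all arrays, the brightest 15 had a median change of 0.77, the middle 14 one of 1.02 and the dimmest 15 one of 1.07. This order is not independent of the change: Rpl39l1, with a control mean of 4.96, stood among the dimmest 15 through its own fall. All genes within a range include its ribosomal protein genes, of which 12, 14 and 12 were higher in the brightest, middle and dimmest ranges. Among all genes within the brightest range, 35.8% of 67 were higher and 52.2% lower, with a median of -0.32. In the middle range 45.2% of 62 were higher, with a median of -0.24. In the dimmest range, which ran from -1.46 to 3.27, 47.0% of 9403 were higher, with a median of 0.17. The response to the hybridisation spike-ins was 0.929 ± 0.028 log2 units per doubling on irradiated and 0.899 ± 0.031 on control arrays (SD, n = 5 and 10). Whether the brightest probe sets were near the top of their range was not tested.

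The 2 genes that fell were Rpl39l1 and Rps4y2, both second copies of other ribosomal protein genes. Rpl39l1 had -1.35, -1.45, -1.23, -1.48 and -1.55 on irradiated arrays, and controls ran from 4.78 (median 4.90) to 5.24. The groups lay farther apart than for any other member, and only 1 of the 5 irradiated arrays reached its own array's median. The measured change was -6.37 ± 0.09 (adjusted p = 4.3e-18), and with irradiated arrays set no lower than their medians it was at least 76.5-fold lower in irradiated testes. Rpl39, the X-linked sister gene whose protein lines the peptide tunnel, had 0.63, 1.00, 1.13, 0.83 and 0.73 on irradiated arrays and -0.39 to 0.21 (median -0.22) on control arrays. It lay above the control range on every irradiated array, by 1.03 ± 0.11 (adjusted p = 1.84e-07), or by -0.81 with Sertoli centring.

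Rps4y2, a copy of the small-subunit gene Rps4x that RefSeq places on chromosome 4, had -0.25, -0.03, -0.61, -0.66 and -0.45 on irradiated arrays and 1.46 to 1.91 (median 1.70) on control arrays. No array overlapped, and every array was above its median. The change was -2.05 ± 0.11, a 4.14-fold fall (adjusted p = 2.43e-11). Rps4x itself had no probe set with that symbol alone. The falls of Rpl39l1 and Rps4y2 kept their direction under all 4 scalings, and both moved with the spermatocyte and spermatid markers given above. The part of those cells in the falls was not tested.

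No other tested copy fell past the threshold. Rpl26l1, a copy of Rpl26, was close to the array median, reached on 3 of 5 irradiated and 4 of 10 control arrays, with a change of 0.15 ± 0.11 (adjusted p = 0.199). Rpl7l1, a relative of Rpl7, had 1.33, 1.23, 1.04, 1.17 and 0.99 on irradiated arrays and -0.16 to 0.64 (median 0.08) on control arrays. It rose by 1.02 ± 0.12 without overlap, and by 0.53 ± 0.10 with overlap in its second probe set, while Rpl7 rose by 1.17 ± 0.13 and 1.34 ± 0.17. Both Rpl7l1 and Rpl7 turned over with Sertoli centring, to -0.83 and -0.67. Rps27l, a copy of Rps27 that p53 induces in human cells, had 1.07, 0.57, 0.71, 0.74 and 0.86 on irradiated arrays and -0.40 to 0.95 (median 0.03) on control arrays. The groups overlapped, and the rise of 0.68 ± 0.18 (adjusted p = 0.00241) became 0.33 after quantile normalization, where it no longer passed. Rpl3l, the striated-muscle copy of Rpl3, was not tested.

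The difference between a copy and its sister gene on the same array does not depend on array scaling by a constant. Copies were set no lower than their array's median, so that a shift towards a dim copy is a bound. For Rpl39l1 minus Rpl39 the difference was -2.16 ± 0.21 in irradiated and 5.13 ± 0.15 in control testes (SD, n = 5 and 10), a fall whose bound was -7.29 (2-sided exact permutation p = 0.000666, which is the lowest this design allows; adjusted p = 0.000999 over 3 pairs). For Rpl26l1 minus Rpl26 the difference was -6.27 ± 0.23 in irradiated and -4.63 ± 0.14 in control testes. It shifted by -1.64 (exact permutation p = 0.000666, adjusted p = 0.000999). Rpl26l1 was at or near its array's median in both groups, so this shift mainly repeats the rise of Rpl26 and cannot show a change of the copy. For Rpl7l1 minus Rpl7 the shift of -0.16 did not pass, with -3.30 ± 0.10 in irradiated and -3.15 ± 0.18 in control testes (exact permutation p = 0.101, adjusted p = 0.101). Levels of different probe sets are not comparable, so only the shift between groups can be read.

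**Figure D3:**
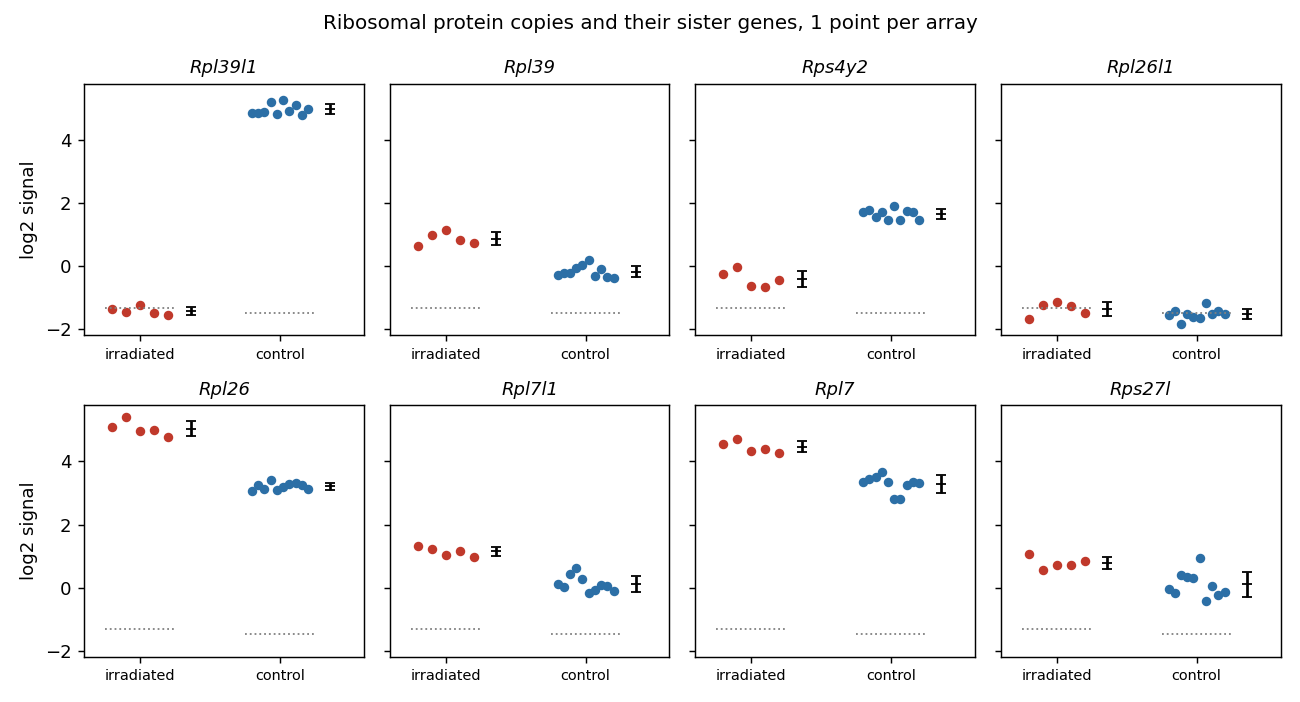
Log2 signal of ribosomal protein copies and their sister genes on each irradiated (n = 5) and control (n = 10) array, with mean and SD beside the points and the mean array median as a dotted line. Rpl39l1 sits near the array median in irradiated testes and at 4.78 to 5.24 in control testes, while the higher values of Rpl39, Rpl26, Rpl7 and Rpl7l1 in irradiated testes turn over with arrays centred on the Sertoli cell markers.

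The changes were also set beside the longest pyrimidine run anywhere in the 30-base window, which need not lie at the annotated start. Genes with longer and shorter runs were not tested against each other. Of the 18 tested genes with a run of at least 8 bases, 16 were higher, where 47.6% of all genes tested were. Their median change was 1.00, with a range of -2.05 to 2.45. Of the 20 with a shorter run, 16 were higher, with a median of 0.81 and a range of -6.37 to 1.95. Both groups turn over with arrays centred on the Sertoli cell markers, as the family does. Of the windows printed above, that of Rps3 has a run of 3, and Rps3 rose like most genes with a shorter run. Rps4y2, with a run of 8, fell.

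Lists of genes that work with the ribosome are set beside the 47.6% of all genes tested that were higher and the 37.9% that were lower. Of 12 tested translation factors and other genes whose transcripts begin with a TOP tract, 6 (50%) were higher and 3 (25%) lower, shares near those of all genes, with a median change of 0.31 that became 0.16 with median centring. With Sertoli centring 1 was higher and 11 lower, where 11.2% and 77.6% of all genes were, with a median of -1.53. Vim, an intermediate filament gene and also one of the Sertoli cell markers, rose by 2.99 ± 0.11, and Eif3h, a subunit of the initiation factor that recruits the small subunit, by 0.81 ± 0.10. Eef1d, part of the complex that reloads the elongation factor, had 2.34, 2.06, 1.98, 2.41 and 1.91 on irradiated arrays and 3.79 to 4.46 (median 4.20) on control arrays. It fell by 2.00 on the log2 scale (SE 0.12) with no overlap, and Nap1l1, a histone chaperone, fell by 0.38 (SE 0.09) with overlap.

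Of 41 tested ribosome biogenesis genes, 20 (48.8%) were higher and 12 (29.3%) lower, again near the shares of all genes, with a median of 0.29 that became -0.03 after quantile normalization and -1.55 with Sertoli centring. Ncl, which encodes nucleolin, had 3.10, 3.09, 3.17, 3.01 and 3.19 on irradiated arrays and 0.79 to 1.29 (median 1.08) on control arrays, a rise of 2.03 ± 0.09. Rrs1, an assembly factor of the large subunit, lay below the array median on every control array and was at least 1.77-fold higher. Rrs1 entered the test only through irradiated arrays, so its rise is not independent of the filter. Gnl2, a nucleolar GTPase, fell by 2.55 (SE 0.12), and Rrp1, a nucleolar processing factor, by 2.07 (SE 0.10). The direction of Ncl was the same with Sertoli centring, but it no longer passed the test there.

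Of the 72 tested genes of mitochondrial ribosomal proteins, 31 (43.1%) were higher and 29 (40.3%) lower, also near the shares of all genes, with a median of 0.06, or -0.27 after quantile normalization and -1.78 with Sertoli centring. Mrpl58, a peptidyl-tRNA hydrolase, fell by 2.66 (SE 0.13), and Mrps5 by 2.36 (SE 0.08), while Mrpl16 was at least 4.67-fold and Mrps35 at least 1.97-fold higher. Mrps35 lay below the array median on every control array and Mrpl16 on 4 of 10. Mrps35 thus entered the test only through irradiated arrays, and its rise is not independent of the filter. The difference between these lists and the cytosolic ribosomal protein genes was not tested. The 35 tested probe sets with several symbols, one of them a ribosomal protein gene, had 26 higher and 4 lower, where 49% and 34.3% of all probe sets were, with a median change of 0.66 and a range of -0.73 to 3.82. With Sertoli centring 3 of them were higher and 31 lower, with a median of -1.18. Of all 18711 probe sets, 2177 were higher and 14165 lower with that centring.

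**Figure D4:**
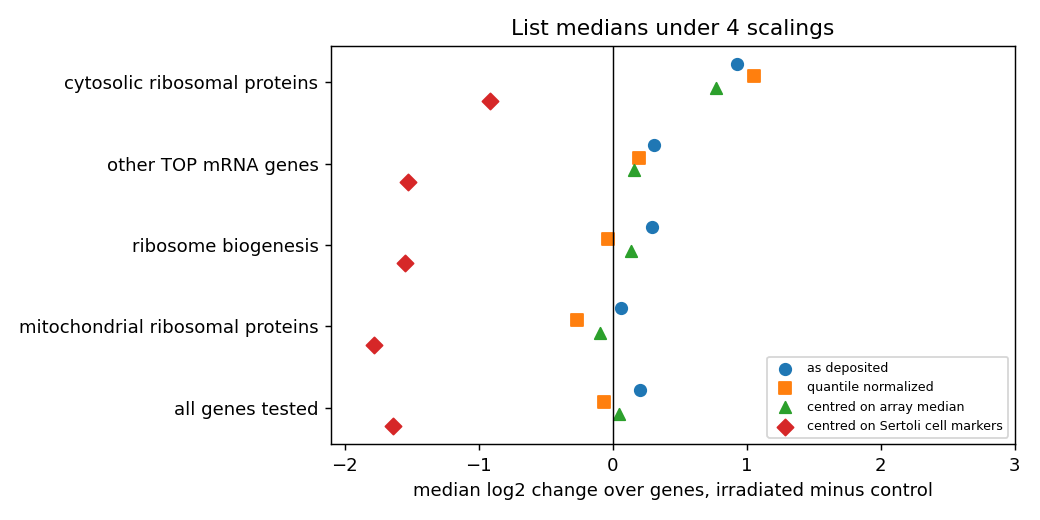
Median log2 change (irradiated minus control) over the tested genes of each list under 4 scalings of the arrays. The cytosolic ribosomal protein genes lie to the right of all genes under each, at 0.93, 1.06, 0.77 and -0.91 against 0.20, -0.06, 0.05 and -1.64, and turn below 0 with arrays centred on the Sertoli cell markers. Both centrings shift all genes alike, so only quantile normalization could alter the distance to all genes.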

How the data were processed

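Total RNA of 15 testis samples was labelled with biotin and hybridised to Affymetrix arrays, per the labels' protocols. The deposited values were taken as log2 signals made by the authors with MAS5, per the submitters' processing notes. The zero point and any further scaling are not given in the sources used here, and 71.5% to 79.6% of an array's values lay below 0. No detection calls were used, so the array median served as the limit for dim probe sets: a change from a dim group is given as "at least". Precision is limited by how many arrays there were.

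Gene names came from the platform annotation of 2016, and 46 of 48 member gene identifiers were found in RefSeq (GRCr8), with 0 symbols changed. Irradiated and control samples were tested with limma 3.58.1 (lmFit and eBayes in R 4.3.3, 2-sided, no covariate). Probe sets reaching their array's median on at least 5 of 15 arrays were tested. Benjamini-Hochberg adjustment ran over all 18711 of these probe sets, with a threshold of 0.05. The adjusted p of each of the 10841 genes is that of its probe set. Each gene was represented by its brightest probe set, by the mean of all arrays. Errors of changes are moderated standard errors. Pairs of genes were compared by exact permutation (scipy 1.17.1). The fit was tested on simulated data.

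Members and lists were chosen with earlier results of these data known. Named were copies and their sister genes, stalk and laminin receptor genes, the 5 largest rises, falls and smallest changes, the 5 brightest genes, and the 2 largest rises and falls of each other list. Rpl37a, Rpl6, Rpl12, Rpl14, Rpl19, Rpl27 and Rpl34 were named after their values were seen. Only 2 genes fell, and the next 3 in that order are among the smallest changes. Alternatives were other scalings, filters, pseudocounts, probe set choices, trended and robust variance, a replicate block and leaving out arrays.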

Additional observations from a re-analysis of the deposited data

Results flagged for a closer look

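In 3 of 78 groups of values examined, 1 array lay farther from the others than Dixon's 95% limit, which chance alone exceeds in about 1 in 20 groups. The share of the summed signal held by ribosomal protein probe sets was 2.97% on irradiated replicate 2, against 2.18% to 2.39% on the other irradiated arrays. Rpl11 was 4.34 on control replicate 4 and 3.97 to 4.16 on the other control arrays. Vim, a TOP gene and Sertoli cell marker, was 2.04 on control replicate 6, against 1.43 to 1.70 on the other control arrays. That array also had the highest difference between 3′ and 5′ actin probe sets of all 15, at 1.89 log2 units. Without control replicates 6 to 8, 39 ribosomal protein genes were higher and 2 lower.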

How the results depend on the processing

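Centring arrays on the Sertoli cell markers turned most directions, and by construction it holds the mean of those markers' tested probe sets equal on all arrays. This centring left 11.2% of all genes tested higher and 77.6% lower. It gave 1 higher and 36 lower probe sets (median -0.89), 1 higher and 33 lower genes (-0.91), 1 and 20 in the large subunit (-0.82), 0 and 13 in the small (-1.07), 1 and 11 among TOP genes (-1.53), 1 and 37 for biogenesis (-1.55), and 1 and 67 for mitochondrial ribosomal proteins (-1.78). Of 37 named genes, 20 changed sign there, each passing with or without that centring: Rpl11 (-1.77), Rpl22 (-0.45), Rpl26 (-0.017), Rpl26l1 (-1.69), Rpl27a (-1.04), Rpl35a (-0.97), Rpl39 (-0.81), Rpl41 (-1.77), Rpl7 (-0.67), Rpl7l1 (-0.83), Rplp0 (-0.37), Rps15 (-1.62), Rps23 (-0.92), Rps24 (-1.41), Rps27l (-1.16), Rps29 (-1.07), Rps3 (-0.11), Rps6 (-1.39), Rpsa (-0.77) and Eif3h (-1.03). Of these, 3 that had not passed also changed sign elsewhere without passing: Rpl11 and Rpl41 with median centring (-0.09 and -0.08) and without irradiated replicate 2 (-0.02 and -0.03), and Rpl26l1 with median centring (-0.0047) and quantile normalization (-0.002). Centring on array medians gave medians of 0.79 (probe sets), 0.77 (genes), 0.87 (large subunit), 0.16 (TOP), 0.14 (biogenesis) and -0.10 (mitochondrial). Quantile normalization gave -0.033 for biogenesis, and 20 higher with a median of -0.27 for mitochondrial genes. A filter at the 75th percentile gave -0.10 for mitochondrial genes, and a pseudocount of 1 gave 0.16 for biogenesis. The cause was not tested. Leaving out 1 array at a time left 38 to 39 ribosomal protein genes higher and 2 lower, with medians of 0.87 to 0.97, and biogenesis medians of 0.17 to 0.32, the lowest without irradiated replicate 2. Replicate numbers gave no sign of pairing: deviations of same-numbered arrays correlated at -0.05, 0.04, 0.02, -0.04 and 0.07. Such correlations cannot show that the samples were unpaired. With the replicate number as a block, 39 genes were higher and 2 lower, with a median of 0.92. No detection calls or depth accompany the values, so the lower limit of detection is unknown.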
